A study of Rattus norvegicus with 42 samples.

Results

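The methionine cycle and the breakdown of cysteine were followed through 9 genes, Mat1a, Mat2a, Gnmt, Ahcy, Bhmt, Cbs, Cth, Cdo1 and Csad, taken by name from the 26426 genes of the pSer2 Pol2 table. All 9 were in the RNA counts and passed the filter on low counts, and 21 of the 3981 regions tested for glucocorticoid receptor (GR) enrichment were centred within 50 kb of the start of 1 of them. The question was how GR enrichment, transcription and RNA of these genes in liver followed corticosterone (CORT) given as hourly pulses (PULS) or as a constant infusion (CONS).

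The animals were male Sprague Dawley rats, all adrenalectomised and given dexamethasone after surgery. All drank a low dose of corticosterone in saline until it was withdrawn ahead of the infusion. PULS rats received CORT in hourly infusions of 20 min each, and CONS rats received a matched dose without interruption. Chromatin was taken at 140 min, at the end of a pulse (PEAK_140), at 180 min when the pulse had passed (NADIR_180), and at the same times of the constant infusion (CONS_140, CONS_180). The ChIP vehicle group (VEH) had a pulsatile vehicle infusion and held 1 library from each time, so it had no replicate at either time. Each ChIP library pooled 6 rats, and each ChIP group had 2 libraries. RNA was taken at 180 min, with 3 libraries in each of PULS CORT, PULS VEH, CONS CORT and CONS VEH. In whole liver, fewer cells of a type and less RNA per cell cannot be told apart.

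Methionine adenosyltransferases make S-adenosylmethionine (SAM), the methyl donor of the cell: Mat1a encodes the form of adult liver and Mat2a the form of most other tissues. Glycine N-methyltransferase (Gnmt) spends SAM, S-adenosylhomocysteine hydrolase (Ahcy) splits the product into homocysteine and adenosine, and betaine-homocysteine methyltransferase (Bhmt) turns homocysteine back into methionine. Cystathionine beta-synthase (Cbs) and cystathionine gamma-lyase (Cth) instead pass its sulfur to cysteine. Cysteine dioxygenase (Cdo1) oxidises cysteine, and cysteine sulfinate decarboxylase (Csad) carries the product on towards taurine. GR is a receptor that binds DNA once it has bound hormone.

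GR libraries held 2051977 to 6715803 tags, pSer2 Pol2 libraries 4938473 to 9326927 tags and RNA libraries 3956379 to 7777219 assigned reads. The deepest GR library was CONS_140 replicate 1. All 6 hepatocyte markers were counted, and together they came to a normalised read count of 89193 to 138027 CPM (reads scaled to library size) in each RNA library, while the cholangiocyte markers summed to between 7.57 and 14.6 CPM. The stellate cell and fibroblast markers, 5 of 5 counted, summed to 529 to 639 CPM in CONS VEH and 442 to 499.6 CPM in CONS CORT without overlap, while Dcn among them was called higher there. Under PULS their sums overlapped, as did those of the hepatocyte, macrophage, endothelial, cholangiocyte and blood markers under both patterns, and Ass1, a hepatocyte marker of the urea cycle, was called higher under both. The part of these in the RNA results was not tested. RNA of Per1, Tsc22d3, Fkbp5 and Tat, known targets of glucocorticoids, passed the test upwards in 4 of 4 under both patterns.

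GR regions lay over the promoters of Mat1a and Bhmt, so the promoter sequences of these genes are shown, from RefSeq on build GRCr8. Each runs from 250 bases before the annotated start through the first 50 bases of the transcript, 5′ to 3′ on the strand of the gene. Capitals mark the hexamer AGAACA or its complement TGTTCT, a half-site of the glucocorticoid response element, and the TATA box sequence TATAAA. The Mat1a window is chr16:17016918-17017217 on the plus strand, and the Bhmt window is chr2:26614380-26614679 on the minus strand.
Mat1a: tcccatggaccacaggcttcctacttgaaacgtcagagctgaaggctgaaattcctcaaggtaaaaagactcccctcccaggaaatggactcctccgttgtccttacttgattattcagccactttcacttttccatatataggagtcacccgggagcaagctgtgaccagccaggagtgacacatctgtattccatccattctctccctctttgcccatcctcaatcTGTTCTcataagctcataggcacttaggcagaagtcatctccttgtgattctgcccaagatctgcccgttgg
Bhmt: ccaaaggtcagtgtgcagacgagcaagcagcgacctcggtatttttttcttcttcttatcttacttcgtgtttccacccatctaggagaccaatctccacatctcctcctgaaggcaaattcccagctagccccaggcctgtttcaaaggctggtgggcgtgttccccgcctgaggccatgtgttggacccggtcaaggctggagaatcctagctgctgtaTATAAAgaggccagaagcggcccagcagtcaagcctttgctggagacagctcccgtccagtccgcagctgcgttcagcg
The Mat1a window held 1 half-site, as TGTTCT, at position -22 from the start. Bhmt held TATAAA at position -29 and no half-site. Searched on both strands, the half-site was in 20.7% of the 33469 RefSeq promoter windows of this length, and TATAAA on the strand of the gene was in 8.8% of them. A fuller response element, GNACA followed by any 3 bases and then TGTNC, which can overlap the half-site, was in 0.439% of the windows. Among the 8 of the 9 genes with a window it was in 1, that of Gnmt, where it lay after the annotated start. No GR region was centred within 50 kb of Gnmt. The GC content of the 8 windows ran from 48.7% in Mat1a to 75.0% in Csad, against a median of 51.7% over all windows. Cdo1 had no window here. The ChIP coordinates that follow are in build rn6, and positions were not converted between builds.

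Occupancy by elongating RNA polymerase II (pSer2 Pol2, the enzyme phosphorylated on serine 2 of its tail) rose with CORT at Mat1a, Bhmt, Ahcy and Csad, and none of the 9 genes passed the test against VEH at NADIR_180. Values are log2 tag values, less input, of a window of up to 10.0 kb from the gene start. A gene was called where limma gave a Benjamini-Hochberg adjusted p under 0.05 and the change was more than 1.5-fold. Calls of a higher value were made for 2 of the 9 genes at PEAK_140 (0.338% of 16262 gene windows were called higher) and for 4 at CONS_140 (0.609%). They were made for 2 at CONS_180 (0.16%) and for 0 at NADIR_180 (0.00615% were called in either direction). At NADIR_180, 1 of the 9 genes and 222 of all gene windows had an unadjusted p under 0.05. These fits did not use the replicate number. With it as a block, Ahcy was also called at PEAK_140 and Cbs at CONS_140. The median log2 change of the 9 genes was 0.08 for NADIR_180, 0.98 for PEAK_140, 1.11 for CONS_180 and 1.39 for CONS_140. The corresponding medians over all gene windows were 0.01, -0.05, 0.01 and 0.15.

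Mat1a, in the window chr16:18690246-18700246, had pSer2 Pol2 values of 10.27 and 10.09 in VEH, 11.60 and 11.62 in PEAK_140, 10.18 and 10.19 in NADIR_180, 11.65 and 11.50 in CONS_140, and 11.49 and 11.48 in CONS_180. The 6 libraries taken during hormone infusion lay above the 4 of VEH and NADIR_180, and the NADIR_180 pair fell between the VEH libraries. Its log2 change was 1.43 ± 0.22 (SE) at PEAK_140, 2.69-fold, with an adjusted p of 0.0113 (limma). At CONS_140 it was 1.39 ± 0.22 (adjusted p = 0.0150), and at CONS_180 it was 1.30 ± 0.22 and just missed the threshold (adjusted p = 0.05002). PEAK_140 exceeded NADIR_180 by 1.43 ± 0.22 (adjusted p = 0.0177). Of the 9 genes Mat1a alone was called in that comparison, in which 0.234% of gene windows were called higher at the peak.

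Bhmt, in chr2:23246158-23256158 on the minus strand, had values of 11.05 and 10.62 in VEH, 12.47 and 12.41 in PEAK_140, 11.07 and 11.39 in NADIR_180, 12.95 and 12.74 in CONS_140, and 12.96 and 12.80 in CONS_180. The 4 CONS libraries were above the PEAK_140 pair, which was above VEH and NADIR_180. Against VEH the log2 change was 1.61 ± 0.23 at PEAK_140 (adjusted p = 0.00714), 2.01 ± 0.23 at CONS_140 (adjusted p = 0.00268) and 2.05 ± 0.23 at CONS_180 (adjusted p = 0.00348). CONS_180 exceeded NADIR_180 by 1.66 ± 0.23 (adjusted p = 0.0153), where Bhmt alone of the 9 was called and 0.148% of gene windows were called higher. PEAK_140 exceeded NADIR_180 by 1.21 ± 0.23, with an adjusted p of 0.0523.

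Ahcy, in chr3:150593082-150603082 on the minus strand, had values of 7.94 and 7.50 in VEH, 9.08 and 9.29 in PEAK_140, 8.29 and 8.07 in NADIR_180, 10.34 and 9.99 in CONS_140, and 9.71 and 9.47 in CONS_180. CONS_140 was highest, PEAK_140 lay between VEH and the CONS groups, and the NADIR_180 pair was above both VEH libraries. The log2 change was 2.45 ± 0.30 at CONS_140, 5.45-fold (adjusted p = 0.00443), and 1.87 ± 0.30 at CONS_180 (adjusted p = 0.0428). At PEAK_140 it was 1.46 ± 0.30, with an adjusted p of 0.0533, or 0.0359 with the replicate number as a block.

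Of the genes of transsulfuration, Cbs, in chr20:10376751-10386751 on the minus strand, had values of 7.45 and 6.30 in VEH, 7.91 and 7.81 in PEAK_140, 8.00 and 7.88 in NADIR_180, 8.95 and 8.61 in CONS_140, and 8.42 and 8.05 in CONS_180. Its VEH libraries stood far apart and its NADIR_180 pair was not below PEAK_140. The largest change, 1.91 ± 0.39 at CONS_140, had an adjusted p of 0.0580, or 0.0339 with the replicate block. Cth, in chr2:264283046-264293046 on the minus strand, lay between -2.17 and -1.99 in all 10 libraries, at the bottom of the table.

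Of the genes of cysteine breakdown, Csad, in chr7:143783970-143793970 on the minus strand, had values of 7.82 and 6.95 in VEH, 8.80 and 8.37 in PEAK_140, 7.38 and 7.23 in NADIR_180, 9.83 and 9.11 in CONS_140, and 8.69 and 8.30 in CONS_180. It was called at CONS_140, where it was 2.09 ± 0.39 above VEH (adjusted p = 0.0354), and not at PEAK_140 (1.20 ± 0.39, adjusted p = 0.410). Cdo1, in chr18:40706686-40716686 on the minus strand, had values of 10.65 and 10.55 in VEH, 11.28 and 11.42 in PEAK_140, 10.45 and 10.79 in NADIR_180, 11.78 and 11.61 in CONS_140, and 11.31 and 11.35 in CONS_180. PEAK_140 and both CONS groups lay above VEH without overlap, but the largest change, 1.10 ± 0.23 at CONS_140, had an adjusted p of 0.0688.

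Mat2a and Gnmt gave no call. Mat2a, in chr4:100296075-100303080 on the minus strand, had values of 6.44 and 6.62 in VEH, 5.79 and 6.18 in PEAK_140, 6.84 and 6.43 in NADIR_180, 7.39 and 7.07 in CONS_140, and 6.72 and 6.50 in CONS_180. Its PEAK_140 pair lay below every other library and its CONS_140 pair above every other, a difference of -1.24 ± 0.33 with an adjusted p of 0.196. Gnmt, in chr9:16565225-16568627, ranged only from 4.42 to 5.29, with its 4 highest values in the CONS groups. The 9 genes had 23 windows in all, counting those of single transcripts. Calls were the same across the windows of a gene, except that 1 of the 3 windows of Mat1a passed at CONS_180. Gnmt, Ahcy, Bhmt and Cdo1 had 1 distinct window each, and each other gene had 2 that largely overlapped. The likeness of the calls was thus built in.

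**Figure D1:**
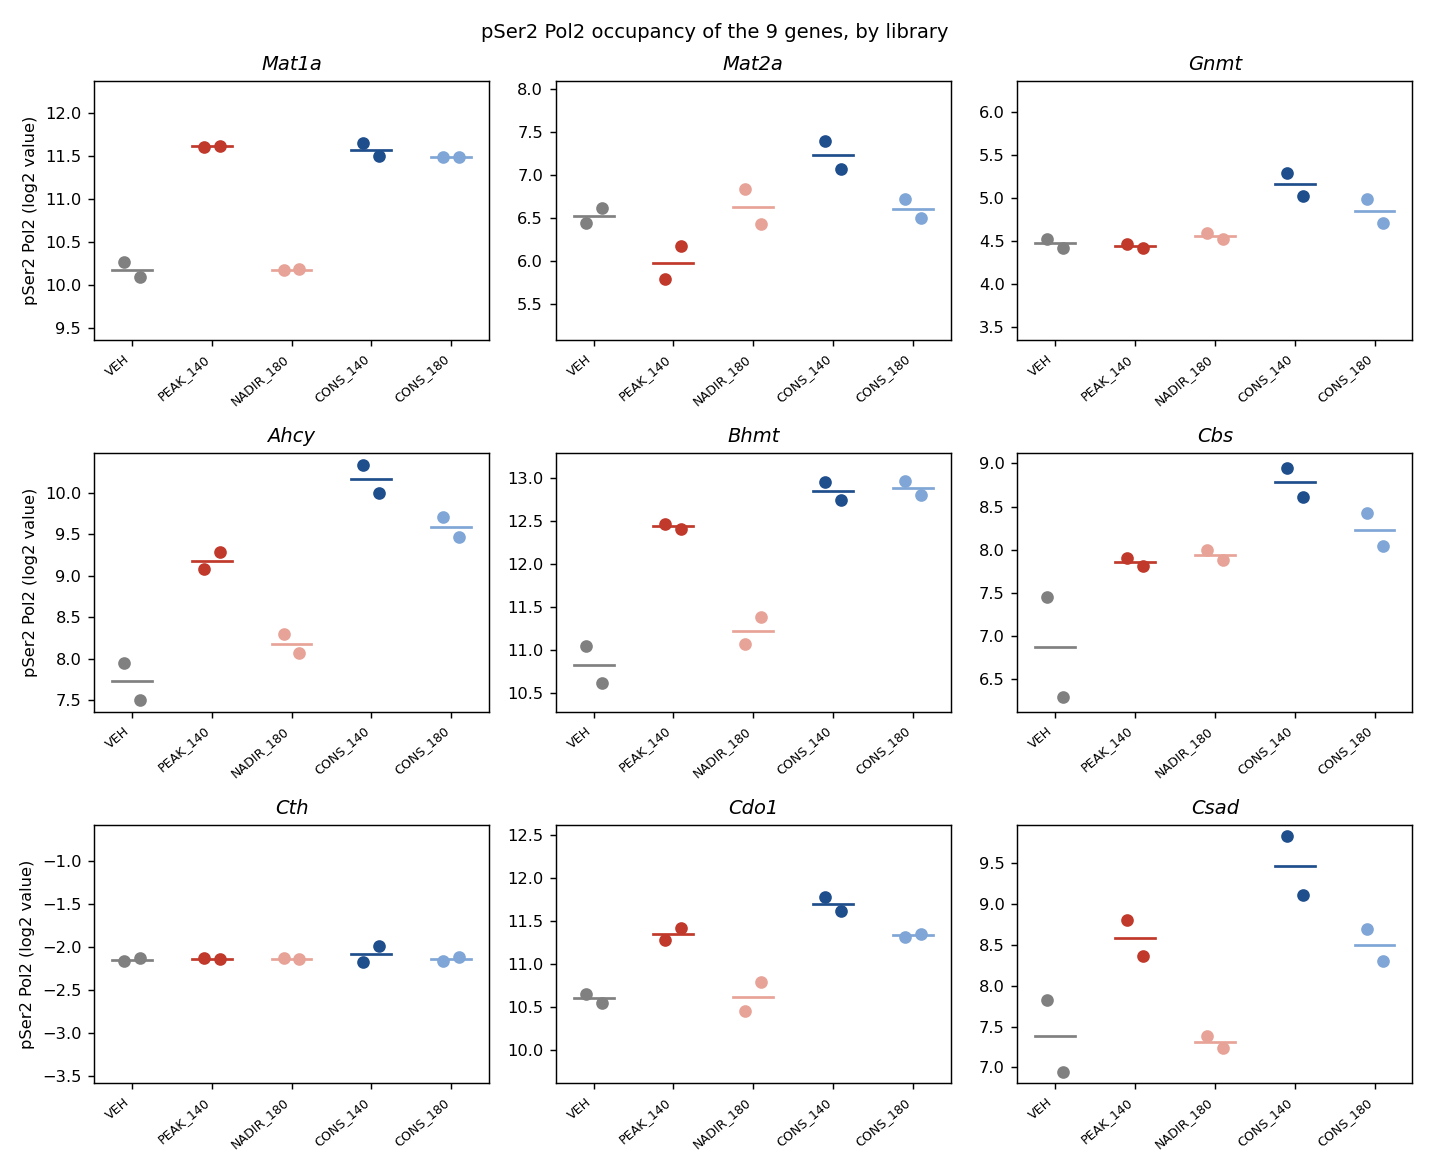
pSer2 Pol2 occupancy (log2 value, y axis) of the 9 genes in the 2 libraries of each ChIP group (points), with the group mean (line). Each panel has its own range of at least 3 log2 units. Mat1a, Bhmt, Ahcy and Csad stand higher in PEAK_140, CONS_140 and CONS_180 than in VEH and NADIR_180, while Cth stays near the lowest value of the table, -2.17.

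Per kb of window, the mean VEH level of pSer2 Pol2 on the log2 scale was 7.51 for Bhmt, 7.28 for Cdo1, 6.86 for Mat1a, 4.40 for Ahcy, 4.06 for Csad, 3.72 for Mat2a, 3.55 for Cbs, 2.71 for Gnmt and -5.47 for Cth. The VEH libraries of Bhmt and Cdo1 overlapped, as did those of each pair of neighbours from Ahcy to Cbs, and those of the other neighbours did not.

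The remaining comparisons of patterns and times gave no call among the 9 genes. PEAK_140 against CONS_140 gave 0 calls (0.0246% of gene windows were called). At an unadjusted p under 0.05 were 5 of the 9 genes and 1430 of all 16262 gene windows. CONS_140 against CONS_180 gave 0 calls (0%), with 1 gene and 493 of all windows under 0.05. The fall from PEAK_140 to NADIR_180 less that from CONS_140 to CONS_180 is here the difference of the time effects. It gave 0 calls (0.043%), with 3 genes and 1046 of all windows under 0.05. That difference was 1.34 ± 0.32 for Mat1a (adjusted p = 0.224) and 1.25 ± 0.33 for Bhmt (adjusted p = 0.296). Over all gene windows the median was -0.26 for PEAK_140 against CONS_140 and -0.30 for the difference of the time effects. With library medians set equal, 2 of the 9, Mat1a and Bhmt, passed the latter.

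The pSer2 Pol2 calls rested on few libraries. At PEAK_140 the call of Mat1a was lost without any 1 library of VEH, PEAK_140 or NADIR_180, and that of Bhmt without any of the same libraries but VEH replicate 1, so that 1 or 0 of the 9 were then called. At CONS_180 the call of Ahcy was lost without any 1 of the 10 libraries, and that of Bhmt without VEH replicate 2 or either CONS_180 library, which left 0. Mat1a was gained at CONS_180 without either CONS_140 library. At CONS_140 the call of Csad was lost without any 1 library except CONS_140 replicate 2, and that of Mat1a without either VEH or either NADIR_180 library or CONS_180 replicate 2. The call of Ahcy was lost there without VEH replicate 2 or NADIR_180 replicate 2, and that of Bhmt without VEH replicate 2 or CONS_140 replicate 1. The count of 4 at CONS_140 thus became 0 without VEH replicate 2, 1 without NADIR_180 replicate 2, 2 without CONS_140 replicate 1, NADIR_180 replicate 1 or CONS_180 replicate 2, and 7 without CONS_140 replicate 2. For PEAK_140 against NADIR_180, the call of Mat1a was lost without any 1 library of PEAK_140, NADIR_180 or CONS_180. For CONS_180 against NADIR_180, that of Bhmt was lost without NADIR_180 replicate 1 or any 1 library of CONS_140 or CONS_180, and Mat1a was gained without either CONS_140 library. Without CONS_140 replicate 2, 3 genes passed for PEAK_140 against CONS_140 and 3 for the difference of the time effects. The direction of every called change against VEH stayed the same.

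RNA at 180 min was higher with CORT than with vehicle for Mat1a, Ahcy and Cdo1 under both patterns, for Bhmt under PULS and for Cbs under CONS. By edgeR's quasi-likelihood test with Benjamini-Hochberg adjustment over 14092 genes, 4 of the 9 were called higher under PULS (1.79% of all genes were) and 4 under CONS (4.45%), and 0 lower in either. The median log2 change of the 9 was 0.91 under PULS and 0.71 under CONS, against -0.01 over all genes in each. Every one of these calls held when any 1 library was left out. Overlap of libraries is described gene by gene below, and the share of all genes without overlap was not computed.

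Mat1a had 929, 972 and 941 CPM in PULS VEH and 2022, 1963 and 2008 CPM in PULS CORT. It had 858, 1090 and 1160 CPM in CONS VEH and 2531, 2505 and 2895 CPM in CONS CORT. CORT did not overlap vehicle under either pattern, and the CONS CORT libraries were above the PULS CORT ones. The log2 change was 1.08 ± 0.13 (SE) under PULS, 2.11-fold (adjusted p = 0.000116, edgeR), and 1.35 ± 0.13 under CONS, 2.55-fold (adjusted p = 3.25e-06).

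Ahcy had 213, 180.3 and 208 CPM in PULS VEH and 430.2, 405 and 298 CPM in PULS CORT, and 209.9, 208 and 261 CPM in CONS VEH and 470.4, 442 and 437 CPM in CONS CORT. Every CORT library was above the vehicle libraries of its pattern. The change was 0.91 ± 0.14 under PULS (adjusted p = 0.00130) and 0.99 ± 0.14 under CONS (adjusted p = 0.000202).

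Bhmt, the remethylating enzyme, had 1460, 1103 and 2195 CPM in PULS VEH and 3664, 4800 and 4479 CPM in PULS CORT, a change of 1.44 ± 0.24 (adjusted p = 0.00214). In CONS VEH it had 2043, 3086 and 2337 CPM and in CONS CORT 3109, 2703 and 4555 CPM. These groups overlapped, and the change of 0.47 ± 0.24 did not pass (adjusted p = 0.225). The difference of the responses, CONS less PULS, was -0.97 ± 0.33 and did not pass either (adjusted p = 0.221).

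Cbs had 238, 212 and 272 CPM in PULS VEH, 351, 364 and 347 CPM in PULS CORT, 268, 249 and 246 CPM in CONS VEH, and 418, 424 and 409 CPM in CONS CORT. CORT did not overlap vehicle. Under CONS the change was 0.71 ± 0.11 (adjusted p = 0.000391), and under PULS it was 0.56 ± 0.11, with an adjusted p of 0.00782 but short of the limit on size. Cth, the next enzyme, had 314, 248 and 336 CPM in PULS VEH and 351, 509 and 479.8 CPM in PULS CORT, but 384, 498 and 373 CPM in CONS VEH and 226, 307 and 357 CPM in CONS CORT. CORT libraries were all above vehicle under PULS and all below it under CONS. Neither change passed, at 0.58 ± 0.18 (adjusted p = 0.0797) and -0.49 ± 0.18 (adjusted p = 0.0945), nor did the difference of the responses, -1.07 ± 0.26 (adjusted p = 0.0951). The difference passed with DESeq2 (adjusted p = 0.00484), with no filter on low counts in edgeR (adjusted p = 0.0134) and without CONS VEH replicate 1.

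Cdo1 had 515, 466 and 519.6 CPM in PULS VEH and 1069, 957 and 1256 CPM in PULS CORT, and 601, 533 and 707 CPM in CONS VEH and 969, 1083 and 1128 CPM in CONS CORT. CORT lay above vehicle without overlap. The change was 1.13 ± 0.14 under PULS (adjusted p = 0.000152) and 0.79 ± 0.13 under CONS (adjusted p = 0.000859). Csad had 139 to 195 CPM in PULS VEH, 177 to 235 CPM in PULS CORT, 124 to 261 CPM in CONS VEH and 144 to 179.9 CPM in CONS CORT. Its groups overlapped, and its changes of 0.31 ± 0.21 and -0.23 ± 0.21 did not pass.

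Mat2a had 15.3 to 17.0 CPM in PULS VEH, 18.9 to 20.0 CPM in PULS CORT, 11.7 to 13.7 CPM in CONS VEH and 14.2 to 18.9 CPM in CONS CORT. CORT did not overlap vehicle, but the changes of 0.24 ± 0.14 and 0.41 ± 0.14 did not pass (adjusted p = 0.377 and 0.0720). Gnmt was thinly counted, with 3, 1 and 8 reads in PULS VEH, 11, 13 and 12 in PULS CORT, 20, 13 and 6 in CONS VEH and 29, 19 and 24 in CONS CORT. Under PULS its CORT libraries lay above those of vehicle in CPM. Neither change passed by edgeR (adjusted p = 0.0829 under PULS and 0.161 under CONS), but that under PULS passed with DESeq2 (adjusted p = 0.0460) and with edgeR without PULS VEH replicate 3.

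**Figure D2:**
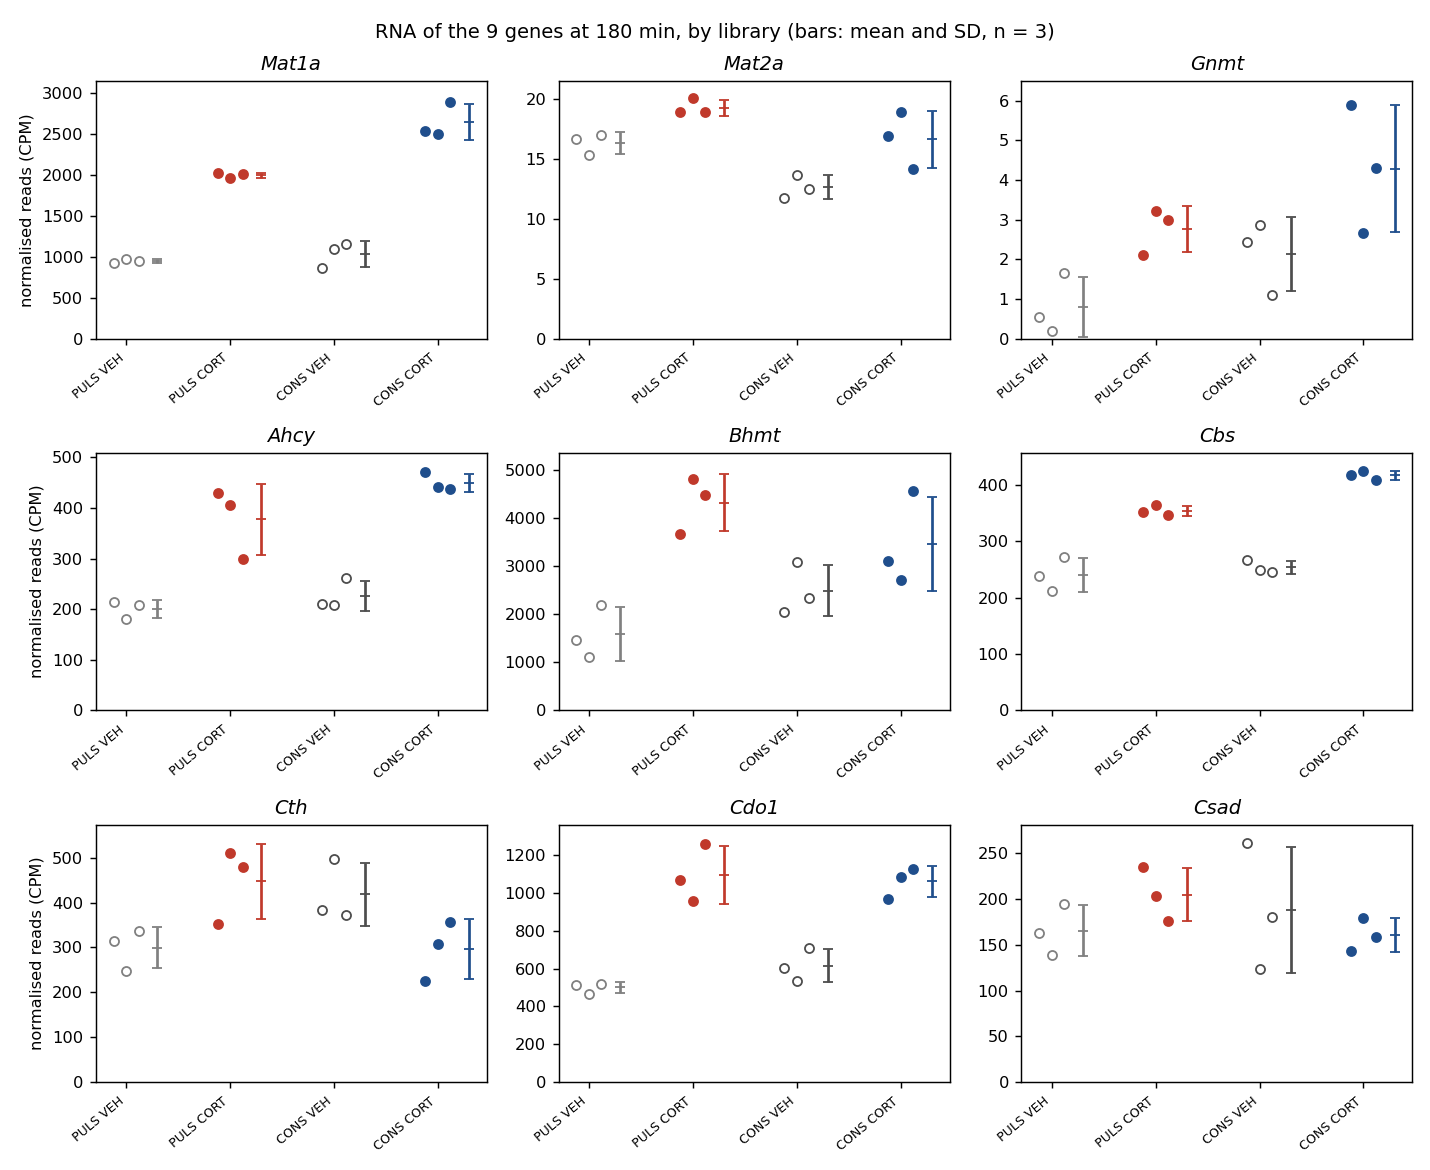
Normalised read count (CPM, y axis from 0) of the 9 genes in the 3 RNA libraries of each group (points), with mean and SD beside them. Open points are vehicle and filled points CORT. Mat1a, Ahcy, Cbs and Cdo1 show CORT above vehicle under both patterns, and Cth shows it above under PULS and below under CONS.

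No gene of the 9 was called between the patterns in RNA. CONS CORT against PULS CORT gave 0 calls (0.887% of all genes were called). At an unadjusted p under 0.05 were 3 of the 9 and 1548 of all 14092 genes. The difference of the responses gave 0 calls (0.0284%), with 2 of the 9 and 1749 of all genes under 0.05. PULS VEH against CONS VEH gave 0 calls (0%), with 5 of the 9 and 1286 of all genes under 0.05. Bhmt was -0.65 ± 0.24 in that comparison of vehicles (adjusted p = 0.429).

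Side by side, Mat1a and Bhmt passed in both pSer2 Pol2 at PEAK_140 and RNA under PULS, and Mat1a and Ahcy in both pSer2 Pol2 at CONS_140 and RNA under CONS. Bhmt passed in pSer2 Pol2 at CONS_140 and CONS_180 and not in RNA under CONS. RNA was taken at 180 min, and at CONS_180 Ahcy passed in both assays while Mat1a just missed in pSer2 Pol2. Csad passed in pSer2 Pol2 at CONS_140 and not in RNA, and Cdo1 passed in RNA and not in pSer2 Pol2. Cbs passed in RNA under CONS, and in pSer2 Pol2 only with the replicate block. Cth had 1112 to 3140 reads in each RNA library, while its pSer2 Pol2 window stood at the bottom of the table.

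**Figure D3:**
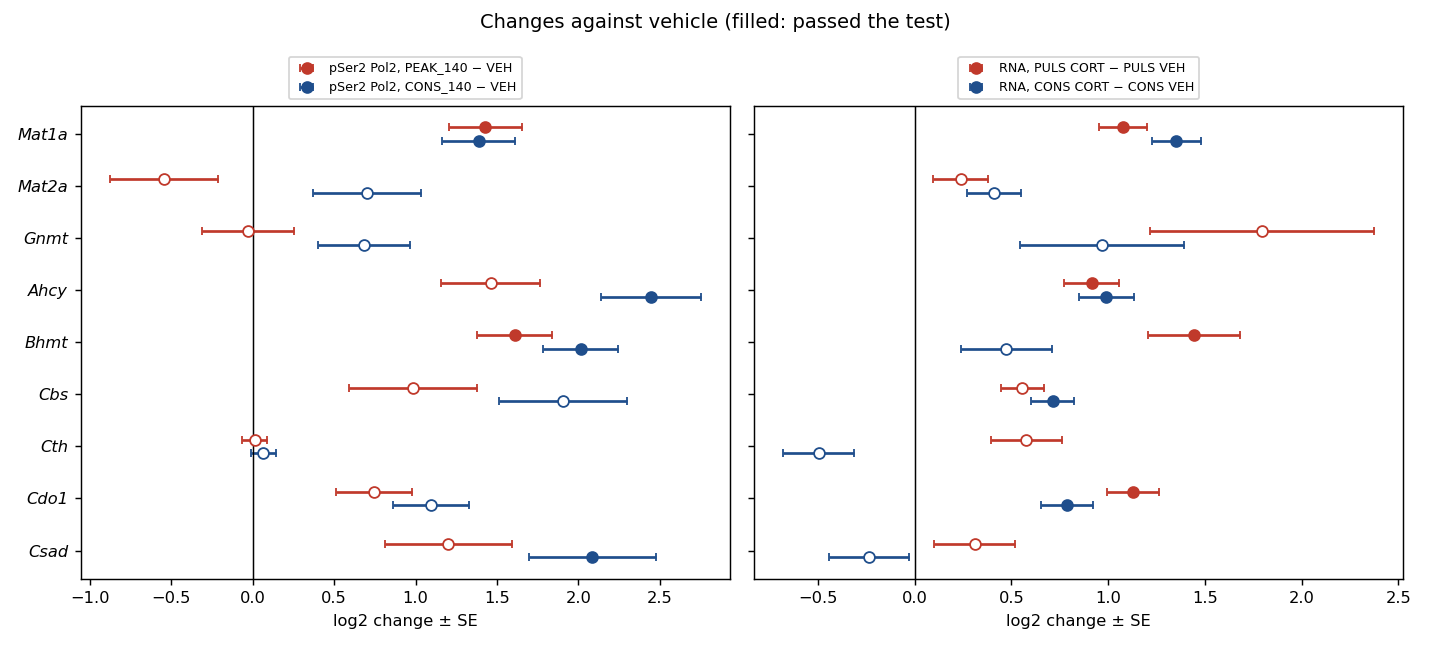
Log2 changes against vehicle with their SE (x axis) for the 9 genes (y axis), in pSer2 Pol2 and in RNA. Red is PEAK_140 or PULS and blue is CONS_140 or CONS, and filled points passed the test. Mat1a is filled in all 4 comparisons, Csad only in pSer2 Pol2 at CONS_140 and Cdo1 only in RNA.

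GR regions stood near 6 of the 9 genes, 7 at Mat1a, 6 at Bhmt, 3 at Ahcy, 2 each at Cdo1 and Csad and 1 at Cbs, and 0 within 50 kb of Mat2a, Gnmt or Cth. The share of all genes with a region within 50 kb was not computed. Between 50 and 100 kb lay further regions of Cdo1, at 70.7 to 91.3 kb downstream, all with a peak in PEAK_140. Mat2a had regions there at -69.9 kb and 86.4 kb, and Mat1a, Bhmt and Csad had others. By the authors' annotation 10 of the 21 were intergenic, 2 were at promoters and 9 lay in a gene or at its end. The authors had called a peak at 12 of the 21 in PEAK_140 (80.6% of all 3981 regions had one), at 17 in CONS_140 (43.3%), at 13 in CONS_180 (61%), at 0 in NADIR_180 (1.81%) and at 0 in VEH (2.91%).

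GR enrichment rose under CORT at most of these regions, and at most of those it was lower at the nadir. Against VEH, limma called 12 of the 21 higher at PEAK_140 (78.6% of all 3981 regions were), 3 at NADIR_180 (7.44%), 12 at CONS_140 (64.7%) and 14 at CONS_180 (67.9%). PEAK_140 exceeded NADIR_180 at 11 (68.8%), CONS_180 exceeded NADIR_180 at 13 (49.6%), and the difference of the time effects passed at 9 (43.6%). CONS_140 against CONS_180 gave 0 calls (0% of all regions were called). At an unadjusted p under 0.05 were 0 of the 21 and 194 of all 3981 regions. PEAK_140 against CONS_140 gave 0 calls (0.0502%), with 1 of the 21 and 560 of all regions under 0.05. The table holds regions in which peaks had been called, so most of it rose: the median log2 change over all regions was 4.17 at PEAK_140 and 3.38 at CONS_140, and 3.54 and 4.00 over the 21. Relative to the library medians, 3 of the 21 were called at PEAK_140. Of the 12 called before, the change turned negative at Ahcy +18.1 kb, Bhmt -0.4 kb, Csad -11.9 kb, Csad -7.9 kb and Mat1a -0.1 kb. This scaling lowers every change at PEAK_140 by the same amount, so the smaller positive changes of uncalled regions turned negative too.

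By place, all 10 intergenic regions and both at promoters passed at PEAK_140, and 0 of the 9 in a gene or at its end. Over all 3981 regions, 81.6% of intergenic regions, 56.2% of those at promoters and 79.7% of those in genes passed there. The 12 that passed each had a peak of PEAK_140. The 9 had entered the table through a peak of CONS_140 or CONS_180 and none of PEAK_140. Nothing is therefore read from the counts by place at PEAK_140. At CONS_180 the counts were 10, 2 and 2, against 70.9%, 50.8% and 67.8% of all such regions. The 2 in a gene or at its end had a peak in CONS_180 alone, so nothing is read from them either.

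Among the highest values were those of 3 intergenic regions at Ahcy and Mat1a. At Ahcy, the intergenic region 21.3 kb downstream of the start, chr3:150581492-150582117, had GR log2 values of -0.18 and -0.39 in VEH, 7.30 and 7.25 in PEAK_140, 4.12 and 4.25 in NADIR_180, 7.51 and 7.65 in CONS_140 and 7.04 and 6.96 in CONS_180. The NADIR_180 pair was 4.47 ± 0.32 above VEH (adjusted p = 0.000278), while PEAK_140 exceeded it by 3.09 ± 0.32 (adjusted p = 0.000259). The region 14.5 kb upstream of Ahcy, chr3:150617254-150617879, had 0.92 and 2.38 in VEH, 7.43 and 7.18 in PEAK_140, 4.40 and 4.26 in NADIR_180, 6.97 and 6.96 in CONS_140 and 6.34 and 6.51 in CONS_180, and it too was above VEH at NADIR_180, by 2.68 ± 0.47 (adjusted p = 0.00866). At Mat1a, the region 14.2 kb upstream, chr16:18675603-18676517, had -0.35 and -0.55 in VEH, 7.22 and 6.89 in PEAK_140, 2.41 and 3.56 in NADIR_180, 5.77 and 6.15 in CONS_140 and 6.29 and 6.08 in CONS_180. It was 3.43 ± 0.49 above VEH at NADIR_180 (adjusted p = 0.00425). These 3 were the regions called at NADIR_180, and 0 were called there when only the groups compared were fitted, or with libraries centred on their medians.

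At the Mat1a promoter, chr16:18689783-18690433, GR stood at 2.60 and -0.59 in VEH, 6.13 and 4.42 in PEAK_140, 3.14 and 2.63 in NADIR_180, 5.86 and 5.54 in CONS_140 and 5.10 and 5.39 in CONS_180. PEAK_140 was 4.27 ± 0.97 above VEH (adjusted p = 0.00357), and its excess over NADIR_180, 2.39 ± 0.97, did not pass (adjusted p = 0.0526). The region 2.4 kb upstream, chr16:18687510-18688193, had 0.84 and 2.36 in VEH, 7.06 and 7.03 in PEAK_140, 1.59 and 2.94 in NADIR_180, 6.28 and 6.07 in CONS_140 and 5.70 and 5.49 in CONS_180, and PEAK_140 exceeded NADIR_180 there by 4.78 ± 0.61 (adjusted p = 0.000488). A further region 15.8 kb upstream, chr16:18674155-18674682, was at 4.98 and 4.44 in PEAK_140 and 0.69 and -0.82 in VEH.

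At the Bhmt promoter, chr2:23256242-23256867, GR stood at 2.31 and 0.58 in VEH, 6.09 and 5.96 in PEAK_140, 2.94 and -0.10 in NADIR_180, 6.48 and 6.35 in CONS_140 and 5.92 and 6.09 in CONS_180. NADIR_180 and VEH overlapped, and PEAK_140 exceeded NADIR_180 by 4.60 ± 0.92 (adjusted p = 0.00306). The region 9.6 kb upstream, chr2:23265390-23266120, had -0.43 and 1.22 in VEH, 6.22 and 6.40 in PEAK_140, 2.93 and -0.18 in NADIR_180, 5.91 and 6.17 in CONS_140 and 5.75 and 5.56 in CONS_180, and PEAK_140 was 5.91 ± 0.94 above VEH (adjusted p = 0.000563). The region 14.5 kb upstream, chr2:23270327-23270952, was at 4.30 and 4.18 in PEAK_140 and 2.31 and -0.50 in NADIR_180.

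Csad had regions 11.9 kb and 7.9 kb upstream. The farther, chr7:143805506-143806199, had -0.64 and 1.65 in VEH, 4.41 and 4.95 in PEAK_140, 1.49 and -0.42 in NADIR_180, 3.97 and 4.43 in CONS_140 and 4.21 and 3.27 in CONS_180. The nearer, chr7:143801545-143802213, had 1.37 and 1.15 in VEH, 3.77 and 3.93 in PEAK_140, -0.65 and -0.50 in NADIR_180, 3.55 and 1.69 in CONS_140 and 3.59 and 3.27 in CONS_180. In it NADIR_180 lay below both VEH libraries, a change of -1.84 ± 0.72 that did not pass (adjusted p = 0.213), and PEAK_140 exceeded NADIR_180 by 4.43 ± 0.72 (adjusted p = 0.00121). At Ahcy +18.1 kb, chr3:150584798-150585193, PEAK_140 was 3.54 ± 0.90 above VEH (adjusted p = 0.00604).

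**Figure D4:**
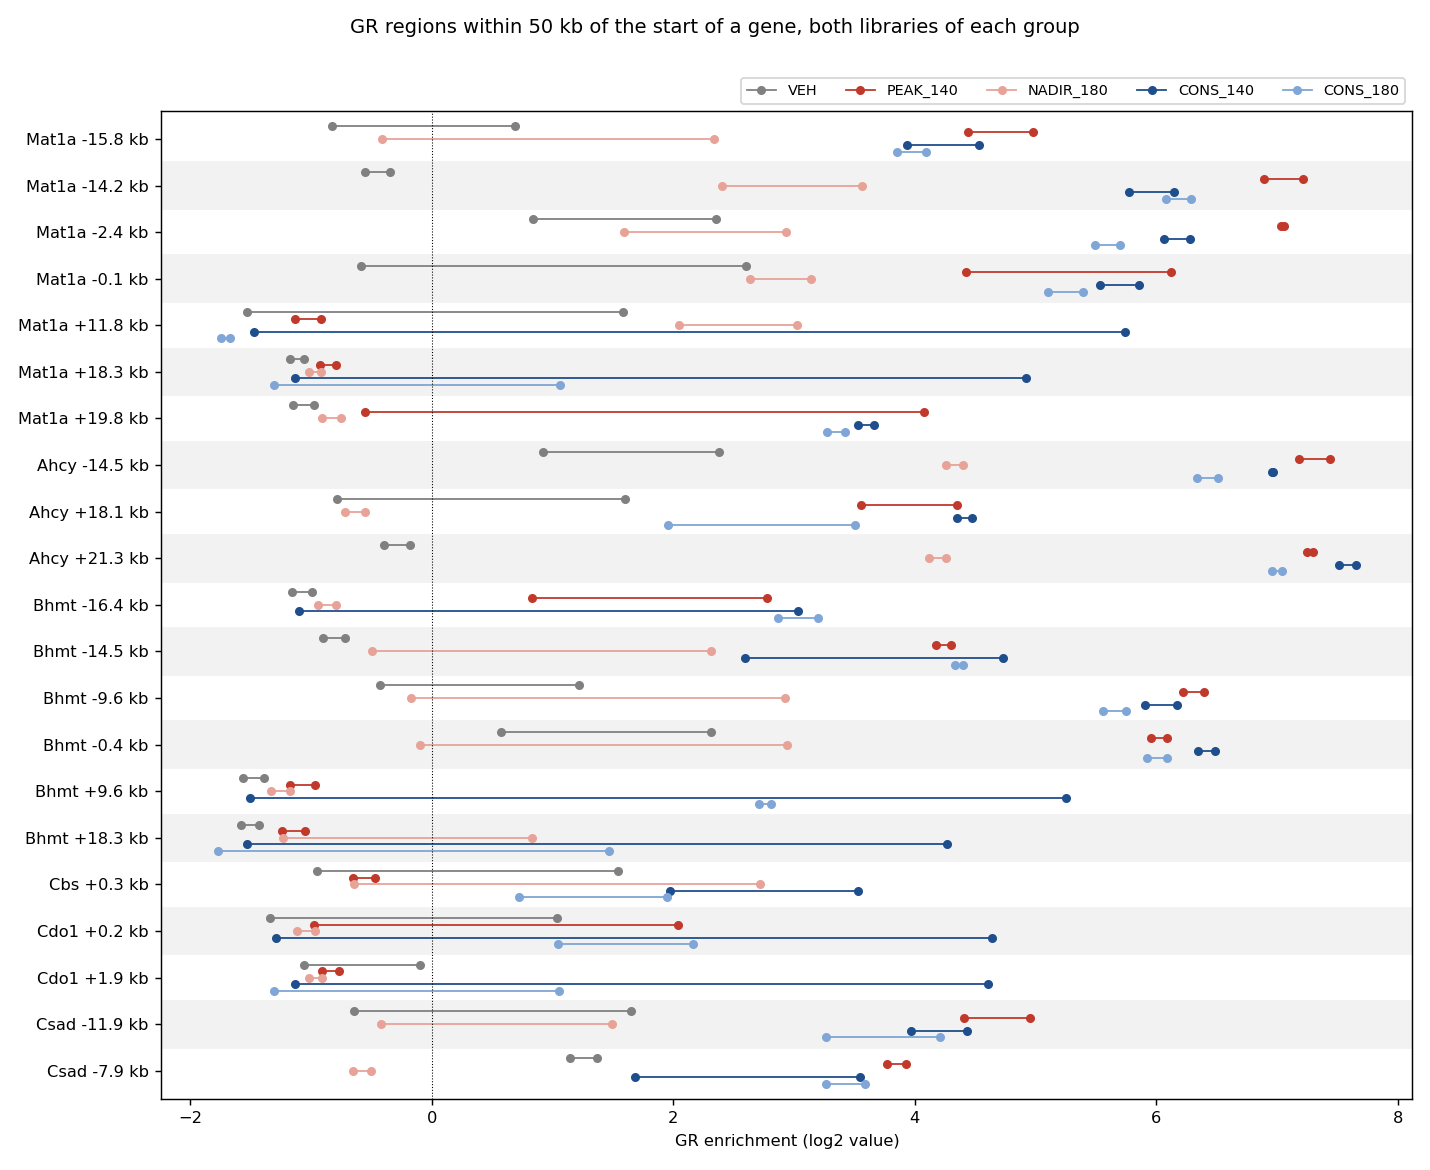
GR enrichment (log2 value, x axis) at the 21 regions, named by gene and distance of the centre from its start in kb (negative is upstream). Each line joins the 2 libraries of a group. Regions upstream of Mat1a, Bhmt and Csad and those at Ahcy sit high in PEAK_140, apart from Bhmt -16.4 kb, and the 2 libraries of CONS_140 lie far apart at most regions within genes.

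At most regions within genes the 2 CONS_140 libraries had unlike GR values. At 6 of the 21 the authors had a peak in CONS_140 and in no other group. They lay in Mat1a intron 6 (chr16:18701828-18702355) and exon 11 (chr16:18708285-18708812), Bhmt intron 7 (chr2:23237586-23238113), Cbs intron 1 (chr20:10386190-10386717), and Cdo1 exon 1 (chr18:40716180-40716707) and intron 1 (chr18:40714509-40715036). CONS_140 replicate 1 read 3.53 to 5.74 at these 6, and replicate 2 was below 0 at 5 of them. The median difference between the libraries was 5.86, against 0.13 at the 12 regions with a peak in PEAK_140. Over all 252 regions with a peak in CONS_140 alone it was 2.63, and 0.52 over the other 3729. None of the 6 passed against VEH in any group. Replicate 1 was the deepest GR library, and the part of depth in this was not tested. The number of regions called at CONS_140 rose when replicate 2 was left out. Replicate 1 was then the whole group, and the 6 regions had entered through a peak of CONS_140. That rise is therefore partly built in, and nothing is read from it.

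The 3 other regions had a peak in CONS_180 and not in PEAK_140. They were Bhmt -16.4 kb, an exon of a neighbouring transcript (chr2:23272209-23272834), at 2.87 and 3.20 in CONS_180, Bhmt intron 2 (chr2:23246090-23247023) at 2.71 and 2.81, and the end of Mat1a (chr16:18709732-18710357) at 3.42 and 3.27. In VEH, where none had a peak, the 3 lay below 0 in both libraries. They had entered through a peak of the CONS groups, so nothing is read from this contrast. The end of Mat1a was at 4.08 and -0.55 in PEAK_140 and 3.66 and 3.53 in CONS_140. Bhmt -16.4 kb was at 2.78 and 0.83 in PEAK_140 and 3.03 and -1.10 in CONS_140. Bhmt intron 2 was at -1.18 and -0.97 in PEAK_140 and 5.25 and -1.51 in CONS_140.

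**Figure D5:**
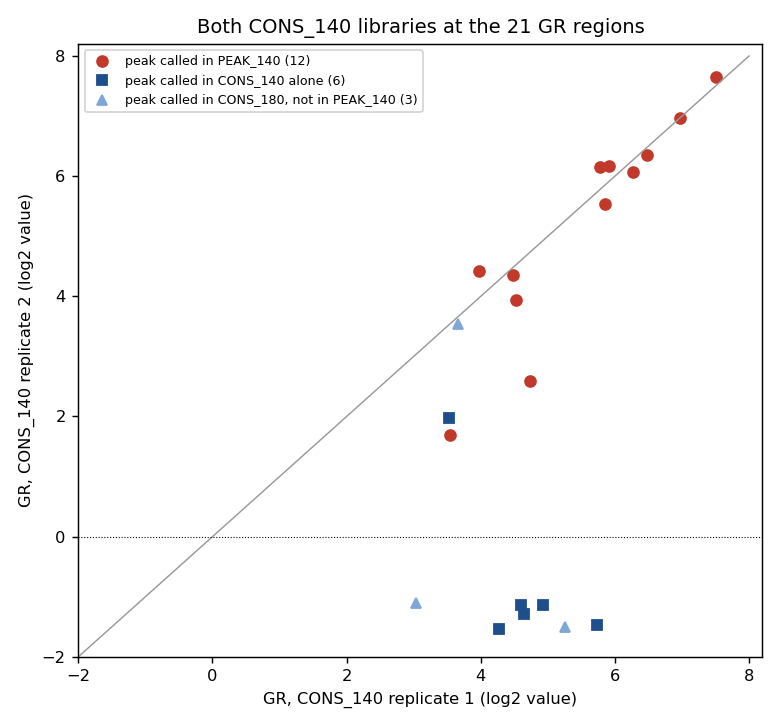
GR log2 values of the 21 regions in CONS_140 replicate 1 (x axis) and replicate 2 (y axis), with the line of equality and a dotted line at 0. Marks show the group in which the authors called a peak. The 12 with a peak in PEAK_140 are at 1.69 or above in replicate 2, and 5 of the 6 with a peak in CONS_140 alone are below 0 in it.

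The surrounding pathway was read through 6 lists of 58 genes. Of the 56 tested in RNA, 6 were called higher and 0 lower under PULS, where 1.79% of all genes were called higher and 2.44% lower. Under CONS, 6 were called higher and 3 lower, against 4.45% and 4.75% of all genes, so that the share called lower was near that of the table. Of the 54 tested in pSer2 Pol2, 2 were called higher and 1 lower at PEAK_140 (0.338% and 0.572% of gene windows), and 3 higher and 0 lower at CONS_140 (0.609% and 0.166%). The 15 genes of remethylation and folate gave 0 calls in RNA under either pattern by edgeR, with median log2 changes of -0.03 and 0.03.

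Among 11 genes that use SAM or remove adenosine, 1 was called in RNA under PULS and 5 under CONS, 4 higher and 1 lower. Adk, adenosine kinase, which removes a product of the Ahcy reaction, rose by 0.96 ± 0.13 under PULS (adjusted p = 0.000581) and by 1.73 ± 0.14 under CONS (adjusted p = 4.95e-07). Nnmt, which methylates nicotinamide, rose by 1.40 ± 0.23 in RNA under CONS (adjusted p = 0.000670, edgeR) and was not called in RNA under PULS. In pSer2 Pol2 Nnmt rose by 2.85 ± 0.42 at PEAK_140 (adjusted p = 0.00876, limma). It rose there by 2.24 ± 0.42 at CONS_140 (adjusted p = 0.0363) and by 2.72 ± 0.42 at CONS_180 (adjusted p = 0.0321). As3mt, arsenic methyltransferase, rose by 0.71 ± 0.20 in RNA under CONS (adjusted p = 0.0260) and by 1.95 ± 0.32 in pSer2 Pol2 at CONS_140 (adjusted p = 0.0150).

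Of the 9 genes of cysteine sulfur and taurine tested in RNA, 2 were called higher under PULS, and 1 higher and 1 lower under CONS. Got1, the cytosolic aspartate aminotransferase, had 120.1, 111 and 68.5 CPM in PULS VEH, 369.6, 286 and 297 CPM in PULS CORT, 92.5, 85.1 and 128 CPM in CONS VEH and 791, 1058 and 977 CPM in CONS CORT. Its 4 groups of libraries were apart except for the vehicles. The changes were 1.67 ± 0.20 under PULS (adjusted p = 0.000160) and 3.21 ± 0.21 under CONS (adjusted p = 8.58e-08), and CONS CORT exceeded PULS CORT by 1.57 ± 0.20 (adjusted p = 0.00148). Its pSer2 Pol2 values were 9.002 and 8.749 in VEH, 10.92 and 10.48 in PEAK_140, 7.92 and 7.27 in NADIR_180, 10.71 and 10.48 in CONS_140, and 10.71 and 10.47 in CONS_180. The NADIR_180 pair was below VEH, and the difference of the time effects, 3.10 ± 0.45, passed (adjusted p = 0.0419). Baat, which joins bile acids to taurine or glycine, had a change of -1.29 ± 0.24 in pSer2 Pol2 at PEAK_140 (adjusted p = 0.0321) and of -0.75 ± 0.11 in RNA under CONS (adjusted p = 0.000224). Baat was not called in pSer2 Pol2 at CONS_140 or CONS_180, nor in RNA under PULS. Ethe1, a sulfur dioxygenase of mitochondria, rose by 0.95 ± 0.20 under PULS (adjusted p = 0.00944).

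Calls in the other lists were few. Of 5 genes of choline, betaine and sarcosine, Sardh and Aldh7a1 rose under PULS, by 0.66 ± 0.13 and 0.74 ± 0.17 (adjusted p = 0.00782 and 0.0172), and 0 under CONS. Of 9 polyamine and salvage genes, Odc1, ornithine decarboxylase, rose under PULS by 0.75 ± 0.17 (adjusted p = 0.0197) and Amd1, SAM decarboxylase, under CONS by 0.68 ± 0.15 (adjusted p = 0.00631). Of 7 glutathione genes, Gclm, a subunit of glutamate-cysteine ligase, had a change of -0.89 ± 0.20 under CONS (adjusted p = 0.00817).

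For the genes called in RNA, the most similar patterns over the 12 libraries were sought among 9003 genes with a mean above 5 CPM. By Pearson's r of log2 CPM, a description over libraries that share 4 groups, Mat1a was most like Cps1 (0.990), Etnppl (0.986) and AABR07015559.1 (0.982). Ahcy was most like Tsc22d3 (0.962), Zfp354a (0.960) and Slc25a15 (0.956). Bhmt was most like Sult1a1 (0.951), Prodh1 (0.943) and AABR07032520.1 (0.926). For Cbs the genes were Por (0.981), Csnk1d (0.981) and Edem1 (0.974), and for Cdo1 Atp2c1 (0.976), Rpe (0.975) and Glud1 (0.967).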

How the data were processed

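GR ChIP, pSer2 Pol2 ChIP and RNA libraries of rat liver were used. Per the labels and the study's methods, the authors trimmed reads with Trimmomatic 0.36, aligned ChIP reads with bowtie2 and RNA reads with STAR to rn6, and made ChIP tables with HOMER 4.9.1. The deposited ChIP tables hold log2 tag values after regularised scaling and subtraction of input, per region, and peak calls on pooled replicates. The authors counted RNA reads per gene with featureCounts 1.6.2, and these raw counts were deposited. The authors' own comparison columns were not used.

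ChIP values were fitted with limma 3.58.1 with a variance trend, over all 10 libraries of an assay and all regions with values other than 0 (38315 for pSer2 Pol2, 3981 for GR). Genes whose reads summed to more than 10 entered a fit of the counts, all 12 libraries together, with edgeR 4.0.16 (TMM, quasi-likelihood). Calls needed an adjusted p under 0.05 (Benjamini-Hochberg) and a change of more than 1.5-fold. A gene's pSer2 Pol2 value is that of the region that carries its gene identifier. Scripts were tested on simulated data. Nothing in the labels ties RNA libraries to animals, so p-values measure the spread between libraries.

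Same-numbered pSer2 Pol2 libraries deviated together (r of deviations from group means 0.155 to 0.553 in 6 pairs). The number, from the labels, was therefore taken as a possible pairing, though VEH carries no number. With 2 libraries a group there were no differently numbered pairs to set against these values. The labels do not say what libraries of 1 number share, so the pairing itself was not tested. The main calls are from fits without this pairing, and calls that change with the number as a block are named. Members and lists were chosen with earlier results of these data known. Named genes are the 9 genes, called genes of the lists (at most the 4 with the largest change) and the 3 most similar RNA patterns. Alternatives were other scalings, trends, filters, tools (DESeq2 1.42.0), distance limits and leaving out each library. One gene counted among the pathway lists is not reported here by name.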

Additional observations from a re-analysis of the deposited data

Results flagged for a closer look

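The loss of GR from PEAK_140 to NADIR_180 differed from the change over the same times of constant infusion at 9 of the 21 regions, by the test of the difference itself (limma). This share is about that of the whole table, in which 43.6% of regions passed, and with libraries centred on their medians 0 of the 21 passed. The difference was 2.44 at Ahcy -14.5 kb, 2.51 at Ahcy +21.3 kb, 4.04 at Bhmt -14.5 kb, 4.54 at Bhmt -9.6 kb, 4.19 at Bhmt -0.4 kb, 3.68 at Csad -11.9 kb, 5.24 at Csad -7.9 kb, 4.29 at Mat1a -14.2 kb and 4.21 at Mat1a -2.4 kb, on the log2 scale. Without PEAK_140 replicate 1 or either CONS_180 library 4 of the 21 passed, and without PEAK_140 replicate 2 the count was 5.

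Cth RNA lay above vehicle in 3 of 3 PULS CORT libraries and below it in 3 of 3 CONS CORT libraries. The share of all genes split in this way was not computed, and neither change passed (adjusted p = 0.0797 and 0.0945, edgeR). PULS CORT and CONS CORT libraries overlapped. Mean CPM was 299 in PULS VEH, 447 in PULS CORT, 418 in CONS VEH and 297 in CONS CORT. The difference of the responses was -1.07 on the log2 scale, and edgeR gave it an adjusted p of 0.0951. PULS VEH libraries of Cth were also below those of CONS VEH.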

How the results depend on the processing

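Of 188 recomputed counts of calls, 141 stayed within 1.5 times the reported count and 47 did not. Of 575 recomputed changes of single genes and regions, 488 kept direction and call, 27 lost and 30 gained a call, 25 moved and 5 called changes turned. With libraries centred on their medians, which by construction removes a rise shared by most regions, GR calls among the 21 regions fell to 3 at PEAK_140, 0 at NADIR_180, 2 at CONS_140, 1 at CONS_180, 2 for PEAK_140 against NADIR_180, 0 for CONS_180 against NADIR_180 and 0 for the difference of the time effects. Among the regions called before at PEAK_140, the changes that turned were -1.07 at Ahcy +18.1 kb, -0.041 at Bhmt -0.4 kb, -0.44 at Csad -11.9 kb, -2.03 at Csad -7.9 kb and -0.35 at Mat1a -0.1 kb. The smaller positive changes of uncalled regions turned negative there too. A limit of 100 kb took in 33 regions and gave 22, 21 and 23 calls at PEAK_140, CONS_140 and CONS_180, 21 and 20 for PEAK_140 and CONS_180 against NADIR_180, and 15 for the difference of the time effects. Fitting only the groups compared gave 0 GR calls at NADIR_180, and 0 pSer2 Pol2 calls at PEAK_140, CONS_140 and CONS_180 and for both comparisons with NADIR_180. The centred pSer2 Pol2 values gave 4 calls at PEAK_140, 4 for PEAK_140 against NADIR_180, 3 for CONS_180 against NADIR_180 and 2 for the difference of the time effects. In pSer2 Pol2, keeping the upper part of windows by mean gave 4 at PEAK_140, 4 at CONS_180, 3 and 4 against NADIR_180 and 2 for that difference, and no variance trend gave 2 for CONS_180 against NADIR_180 and 1 for that difference. The cause of these shifts was not tested. Leaving out single libraries, GR counts ran from 3 to 5 at NADIR_180, 11 to 20 at CONS_140, 6 to 15 for CONS_180 against NADIR_180 (6 without CONS_180 replicate 2, 7 without replicate 1 or NADIR_180 replicate 2), 0 to 1 for CONS_140 against CONS_180 and for PEAK_140 against CONS_140, and 4 to 10 for the difference of the time effects. pSer2 Pol2 counts ran from 0 to 2 at PEAK_140, 0 to 7 at CONS_140, 0 to 2 at CONS_180, 0 to 1 for both comparisons with NADIR_180, and 0 to 3 for PEAK_140 against CONS_140 and for the difference of the time effects (3 without CONS_140 replicate 2). In RNA, the difference of the responses gave 1 call with DESeq2, 1 with no filter, and 0 to 1 when leaving out libraries.

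With the replicate number as a block, pSer2 Pol2 gave 3 calls at PEAK_140, 0 at NADIR_180, 5 at CONS_140, 2 at CONS_180 and 1 for each comparison with NADIR_180. The block changed no other pSer2 Pol2 call than those of Ahcy and Cbs. GR and RNA libraries shared only a number (r from -0.03 to 0.07 in 6 GR pairs and -0.04 to 0.06 in 18 RNA pairs), and the block gave 13, 3, 12 and 15 GR calls against VEH and 4 and 4 RNA calls under PULS and CONS. Gnmt had few reads in RNA, and 2 libraries a group limit the ChIP tests.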
